A study of Mus musculus with 6 samples.

Results

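Fat around the pancreas is a possible passenger in an islet preparation, and 10 genes listed as adipocyte genes were followed here through 6 libraries of isolated mouse islets. The 10 genes, of 55536 in the count table, were Adipoq, Cfd, Retn, Plin1, Cidec, Fabp4, Lpl, Car3, Pck1 and Cyp2e1. They were chosen by name as genes abundant in fat, Cyp2e1 being a gene of both fat and liver, with their counts in all 6 libraries already known. Their levels and their contrast between the genotypes are therefore given as a description; how many of them passed the threshold over all genes is stated once, and nothing is read from it. The values went against the label as a marker of fat: the genes that define a mature adipocyte were at or near 0 in every library. Only Lpl and Fabp4 were well measured throughout, and Car3, Pck1 and Cyp2e1, low in the other 4 libraries, were high in 2 that also held hepatocyte genes.

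The libraries hold polyadenylated RNA of whole islets from mice on the C57Bl/6J background. Control mice had the genotype Klf4+/+;Gcg-iCre and knockout mice Klf4fl/fl;Gcg-iCre, with 3 libraries each. Both groups therefore carry the Gcg-iCre driver, which directs Cre to the glucagon-producing alpha cells, so that Klf4 is targeted there and stays intact in the other cells of the islet. Age and sex are not given in the labels used here, nor is it said whether each library is a separate animal, so the p-values below measure the spread between these libraries.

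Adipocytes store triglyceride in a single large droplet coated by perilipin and secrete adipokines such as adiponectin into the blood. Their differentiation is driven by the nuclear receptor PPARG together with the C/EBP factors. Several genes used to recognise fat serve other tissues as well: lipoprotein lipase is made by beta cells, muscle and macrophages, FABP4 by capillary endothelium and macrophages, and PCK1 and CYP2E1 by hepatocytes.

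Totals ran from 101277200 to 110243918 counts per library. Most low values were even: 85.0% of the 44344 values from 1 to 20 in the table, and 18 of the 20 such values of the listed genes. Whether the authors counted reads or read pairs is not given in the sources used here, so a limit of 6 counts, that is 3 pairs, was taken as the floor of detection. In CPM, a count scaled by its library's total, this limit is 0.0544 to 0.0592, and it covers counting error only. Islet identity was clear, with Ins2 at 116274 to 127383 CPM and Gcg at 27425 to 53650 CPM. For Klf4, the targeted gene, normalized counts averaged 2681 ± 592 over the controls and 2386 ± 137 over the knockouts (SD, n = 3 each), with overlapping groups (log2 fold change -0.17 ± 0.15 SE, DESeq2 adjusted p = 0.774). Normalized counts are counts divided by the library's DESeq2 size factor. Xist was at 77938 to 108105 normalized counts in the controls and 12.4 to 30.2 in the knockouts, and Y-linked Ddx3y at 0 and at 5599 to 6265, so sex-linked transcripts and genotype cannot be told apart in any difference below. Knockout libraries 1 and 2 stood apart by hepatocyte transcripts: the summed level of 15 hepatocyte genes was 33.1 to 36.1 CPM in the controls and 1087, 74.7 and 38.4 CPM in knockout libraries 1 to 3. Without Tat, which every library held, it was 4.19 to 6.04 CPM in the controls and 1032, 35.8 and 4.64 CPM in knockout libraries 1 to 3.

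The upstream sequences of 4 of the listed genes show the contrast between genes that were high in 2 libraries (Pck1 and Cyp2e1) and genes that define fat and stayed at or under the floor (Adipoq and Plin1). RefSeq sequence for GRCm38.p6 was available for 7 of the 10 genes, and each run is the 250 bases before the start, 5′ to 3′ on the gene's strand. Starts are those of RefSeq, which for Pck1, Cyp2e1 and Plin1 lie inside the gene spans given below from another annotation, GENCODE. Capitals mark matches, on either strand, to 5 short motifs. These were TATAAA, at which the general transcription machinery assembles, and TTGCNNAA, the core bound by C/EBP factors. The others were ACGTCA, from the cyclic AMP response element, then GTTAAT, from the site of the hepatocyte factor HNF1, and lastly AGGTCA, which nuclear receptors bind.
Pck1 (chr2:173152823-173153072, plus strand): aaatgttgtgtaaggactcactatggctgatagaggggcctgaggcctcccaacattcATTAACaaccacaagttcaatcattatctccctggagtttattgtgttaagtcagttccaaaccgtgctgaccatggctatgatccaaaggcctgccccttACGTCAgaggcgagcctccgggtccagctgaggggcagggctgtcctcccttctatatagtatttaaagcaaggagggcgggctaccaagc
Cyp2e1 (chr7:140763569-140763818, plus strand): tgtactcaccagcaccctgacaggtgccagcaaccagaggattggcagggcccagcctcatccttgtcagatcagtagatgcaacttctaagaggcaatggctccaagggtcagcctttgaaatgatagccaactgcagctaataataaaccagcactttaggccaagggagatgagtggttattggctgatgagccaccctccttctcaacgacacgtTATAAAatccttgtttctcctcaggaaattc
Adipoq (chr16:23146286-23146535, plus strand): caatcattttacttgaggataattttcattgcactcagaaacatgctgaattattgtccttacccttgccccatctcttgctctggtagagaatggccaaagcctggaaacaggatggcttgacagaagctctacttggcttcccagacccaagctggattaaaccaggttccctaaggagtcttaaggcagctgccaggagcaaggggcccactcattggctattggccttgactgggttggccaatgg
Plin1 (chr7:79732777-79733026, minus strand): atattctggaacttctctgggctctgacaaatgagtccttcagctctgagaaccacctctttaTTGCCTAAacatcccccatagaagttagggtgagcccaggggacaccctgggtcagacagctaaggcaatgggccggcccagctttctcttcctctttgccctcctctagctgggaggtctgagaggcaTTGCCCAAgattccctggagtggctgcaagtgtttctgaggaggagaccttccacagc

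The Pck1 window held the HNF1 motif, beginning 192 bases before the start, and the cyclic AMP motif at 91 bases. Cyp2e1 held TATAAA at 31 bases and Plin1 the C/EBP core at 187 and at 58 bases, while the Adipoq window held none of the 5 motifs. No match overlapped another. Among 32851 windows of the same length, 12.4% held TATAAA, 9.56% TTGCNNAA, 6.47% ACGTCA, 6.43% GTTAAT and 14.0% AGGTCA. A match is a stretch of letters and says nothing of binding in these cells.

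The adipokines came first in the list and were not detected. Adipoq (chromosome 16, 23146536 to 23158028), which encodes adiponectin, had 2 counts in control library 2 and 0 in the other 5. Cfd (chromosome 10, 79890853 to 79892655), encoding the serine protease adipsin of the alternative complement pathway, had 0 counts in all 6 libraries. Retn (chromosome 8, 3655770 to 3660110), encoding resistin, had 1 count in knockout library 1 and 0 elsewhere. All of these lie under the floor, so levels up to 0.0592 CPM could not have been seen.

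Of the droplet proteins, Plin1 was at or under the floor and Cidec above it in 3 libraries. Plin1 (chromosome 7, 79720218 to 79732903), the perilipin that guards the adipocyte droplet from lipases, had 6 counts in control library 1, 2 in knockout library 2 and 0 in the other 4. Cidec (chromosome 6, 113424634 to 113435760), whose product enlarges lipid droplets, had 8, 10 and 6 counts in control libraries 1 to 3 and 2, 16 and 5 in knockout libraries 1 to 3. Cidec was therefore present at trace level in both groups, which overlapped. Summed over Adipoq, Cfd, Retn, Plin1 and Cidec, the level lay between 0.0272 and 0.175 CPM over the 6 libraries, and these 5 genes held 0.0291% of all counts of the 10.

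**Figure D1:**
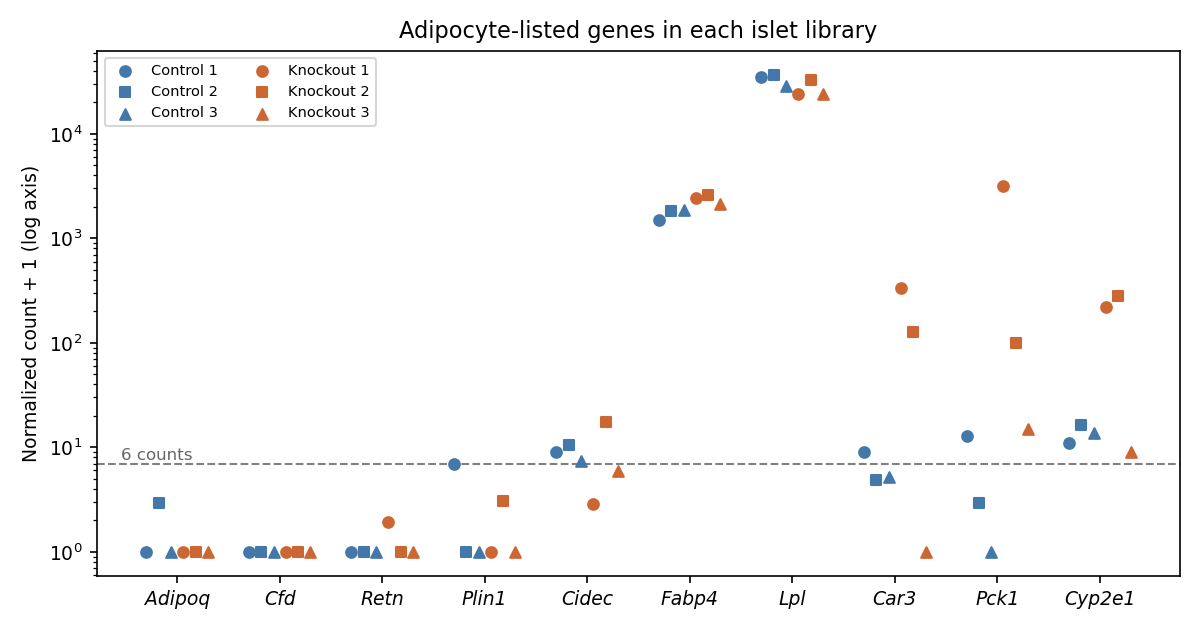
Normalized count plus 1 (log axis) of each of the 10 genes in each library; blue symbols are the 3 control and orange symbols the 3 knockout libraries, and the dashed line marks 6 counts. Adipoq, Cfd, Retn and Plin1 lie at or under the line, Lpl and Fabp4 are high in all 6 libraries, and Car3, Pck1 and Cyp2e1 stand out in knockout libraries 1 and 2.

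Lpl (chromosome 8, 68880491 to 68907448) was the most abundant of the 10. It encodes lipoprotein lipase, which releases fatty acids from circulating triglyceride at the capillary wall. Per unit of transcript length it stood at 81.4, 78.3 and 62.1 TPM (a length-corrected level scaled to the library total) in control libraries 1 to 3 and at 52.8, 70.0 and 54.7 TPM in knockout libraries 1 to 3. In normalized counts the groups were 33577 ± 4198 and 26957 ± 4958 (SD, n = 3 each). Knockout library 2, at 32676, lay above control library 3, at 28857, so the groups overlapped. The log2 fold change was -0.32 ± 0.13 (SE), with a 95% interval from -0.57 to -0.06.

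Fabp4 (chromosome 3, 10204088 to 10208576), encoding a cytosolic fatty acid carrier, was second by its mean over the 6 libraries, although Pck1 exceeded it in knockout library 1. It stood at 8.09, 8.95 and 9.47 TPM in control libraries 1 to 3 and 12.5, 13.1 and 11.1 TPM in knockout libraries 1 to 3. Every knockout library lay above every control. Group means were 1728 ± 210 and 2384 ± 254 normalized counts (SD, n = 3 each), and the log2 fold change was 0.46 ± 0.12 (SE), with a 95% interval from 0.23 to 0.70. From the single remaining library, with knockout libraries 1 and 2 left out, it was 0.29. Lpl and Fabp4 thus differed in direction between the genotypes while together holding 97.7% of the counts of the 10 genes. In bulk RNA, fewer cells of a type and less RNA per cell cannot be told apart.

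Markers of the cells that also make Fabp4 are given beside it. Among 8 endothelial genes DESeq2 called 0 at an adjusted p under 0.05, with 1 at an unadjusted p under 0.05 in edgeR and 0 past the threshold there. Of all 25210 genes fitted in edgeR, 9.48% had an unadjusted p under 0.05 and 0.115% passed. The summed endothelial level was 745 to 829 CPM in control and 798 to 891 CPM in knockout libraries. Of 8 macrophage genes 4 were higher in the knockouts (Cd68, Mrc1, C1qb and C1qc) and 0 lower in DESeq2, against 1.53% and 0.657% of all genes tested. The median log2 fold change over the 8 was 0.42. C1qa, also of the list, did not pass, at a log2 fold change of -0.27 (95% interval -0.52 to -0.03). The summed macrophage level was 107 to 122 CPM in control and 118 to 136 CPM in knockout libraries, and 0 of these 8 genes passed in edgeR, 5 of them having an unadjusted p under 0.05. No gene of either list was at 0 in all libraries. Their part in the Fabp4 values was not tested.

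The last 3 members were high in 2 knockout libraries and low in the others. Car3 (chromosome 3, 14863512 to 14872523), a carbonic anhydrase of fat, liver and slow muscle, had 8, 4 and 4 counts in control libraries 1 to 3 and 353, 122 and 0 in knockout libraries 1 to 3. Pck1 (chromosome 2, 173153048 to 173159273), the cytosolic PEP carboxykinase of gluconeogenesis and glyceroneogenesis, had 12, 2 and 0 counts in the controls and 3326, 96 and 14 in the knockouts. Knockout library 1 alone held 96.4% of all Pck1 counts.

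Cyp2e1 (chromosome 7, 140763739 to 140774987), a cytochrome P450 that oxidises ethanol and ketones, had 10, 16 and 12 counts in control libraries 1 to 3 and 231, 272 and 8 in knockout libraries 1 to 3. Knockout library 3 resembled the controls for Car3 and Cyp2e1, whose groups overlapped. For Pck1 it lay at 14.0 normalized counts against 11.9 in the highest control, and on that margin rested the absence of overlap. Log2 fold changes were 4.84 ± 1.90 (SE) for Car3, 7.88 ± 2.23 for Pck1 and 3.74 ± 1.18 for Cyp2e1. Without knockout library 1 the Pck1 value was 3.61 and the Car3 value 3.56, and without control library 1 the Pck1 value was 10.12. Without knockout libraries 1 and 2 the Pck1 value was 1.60 and the Cyp2e1 value -0.67, with the lone remaining knockout library assumed to vary like the controls. Without both, Car3 had 0 counts on the knockout side.

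Of the 10 genes, 6 had at least 10 counts in total and entered the DESeq2 fit, 4 were given an adjusted p-value, and 1 of those, Fabp4, was past 0.05, on the higher side; in edgeR 0 of the members passed, with 5 of 6 at an unadjusted p under 0.05, against 9.48% of all genes fitted there. Over all 17797 genes given an adjusted p, 2.19% were past the threshold, 1.53% higher and 0.657% lower in the knockouts. Fabp4 and Pck1 were the 2 members whose knockout libraries all lay above the controls, against 9.06% of all genes tested, and 0 members lay wholly below, against 8.23%. Since the members were chosen with these values known, nothing is read from these counts.

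All 15 hepatocyte genes were highest in knockout library 1. In knockout library 2 all but Cyp2f2, which had 0 counts there, also lay above every control. Alb, the albumin gene, had 104, 222 and 148 counts in control libraries 1 to 3 and 54349, 1690 and 122 in knockout libraries 1 to 3. Of the 15 hepatocyte genes, 6 were given an adjusted p-value in DESeq2 and 4 were higher in the knockouts (Apoa1, Ahsg, Serpina1c and Tat), 0 lower. The shares over all genes tested were 1.53% higher and 0.657% lower. In edgeR 0 of the 15 passed, although all 15 had an unadjusted p under 0.05, against 9.48% of all genes fitted there. Tat, the tyrosine aminotransferase gene, was present in every library, with 3009 to 3053 counts in the controls. Cps1, of the urea cycle, was at 0, 4 and 0 counts in the controls and at 3216, 178 and 0 in the knockouts. The part of hepatocyte transcripts in the values of Car3, Pck1 and Cyp2e1 was not tested. Skeletal muscle also makes Car3: 7 muscle genes, most of them of fast fibres, summed to 117, 142 and 102 normalized counts in control libraries 1 to 3 and to 127, 112 and 154 in knockout libraries 1 to 3. Of these, 4 were at or under the floor in every library, Myh4 being at 0 in all 6. Their part in the Car3 values was not tested.

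**Figure D2:**
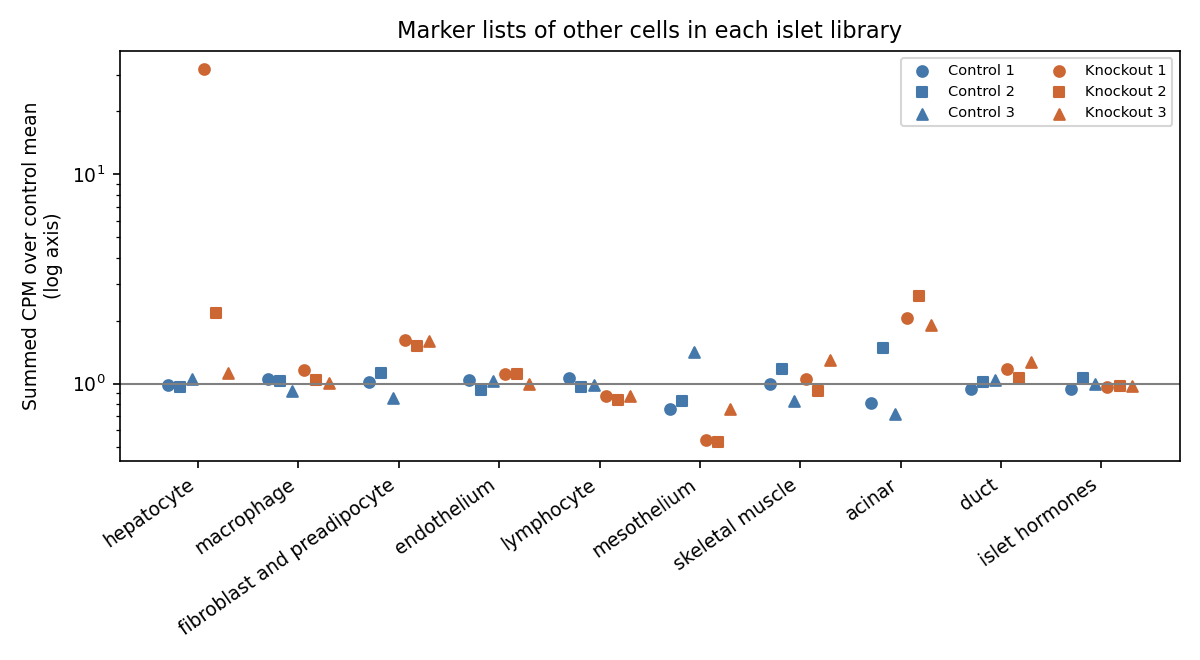
Summed CPM of each marker list in each library divided by the mean of the 3 control libraries (log axis); blue symbols are control and orange symbols knockout libraries. The hepatocyte list stands at 31.7 times the control mean in knockout library 1, 2.18 times in knockout library 2 and 1.12 times in knockout library 3 (200.8, 6.96 and 0.902 times without Tat), while for the fibroblast, acinar and duct lists all 3 knockout libraries lie above the controls and for the lymphocyte list below them.

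The 3 genes did not keep a common ratio between the 2 libraries. In normalized counts, knockout library 1 exceeded knockout library 2 by 31.7 times for Pck1 (95% exact interval of counting error 25.9 to 39.3) and by 2.65 times for Car3 (2.15 to 3.28). For Cyp2e1 the ratio was 0.778 (0.650 to 0.930), its normalized count being the lower in the library that held most of the albumin. The intervals of the 3 genes do not meet, and they cover counting error only. They take each count as independent, and would be wider if both reads of a pair had been counted. Whether the Cyp2e1 interval would then still lie wholly below equal counts was not tested.

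To place these ratios, genes with at most 20 normalized counts in each control library and in knockout library 3, and at least 50 in both other knockout libraries, were collected by a rule set after the values were seen. There were 20, among them Car3, Pck1 and Cyp2e1 and 5 of the 15 hepatocyte genes. Their ratio of knockout library 1 to library 2 had a median of 22.3 and quartiles of 12.9 and 32.4. The limits of the rule themselves restrict which ratios the set can hold, so the place of the 3 members in it is a description only. Beside Cyp2e1 and Car3, low ratios were those of Cyp2c29, a cytochrome P450, at 0.965, and Slco1b2, a hepatocyte anion transporter, at 2.98; the next gene, Ces1c, stood at 11.8. The highest was 74.2, for the haptoglobin gene Hp. With the lower limit applied to knockout library 1 alone, 154 genes qualified, and with it applied to knockout library 2 alone, 21.

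**Figure D3:**
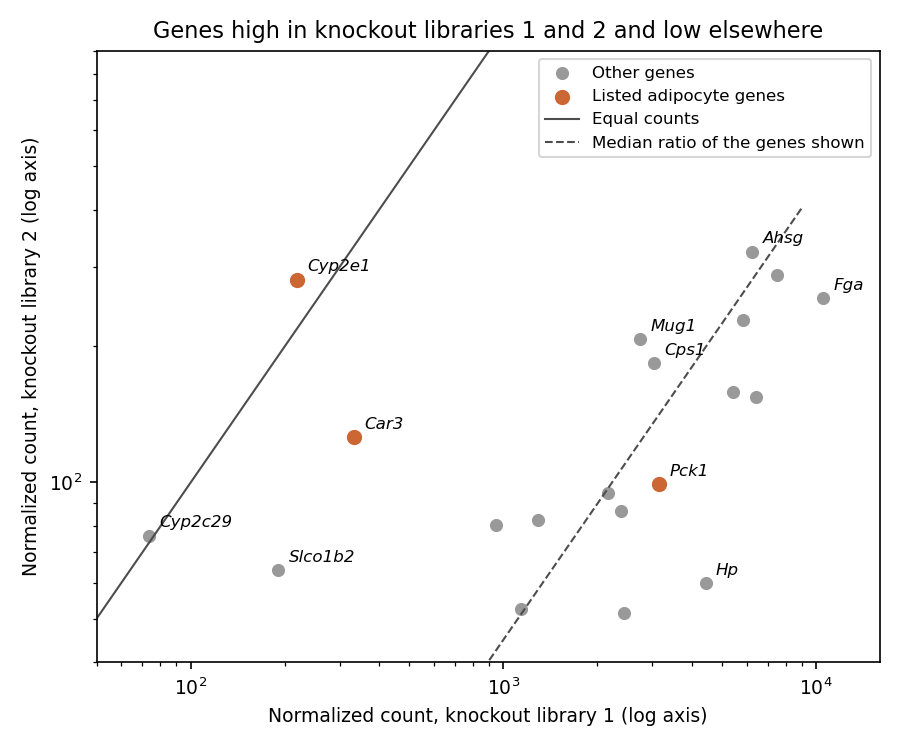
Normalized counts in knockout library 1 (horizontal, log axis) and knockout library 2 (vertical, log axis) of the 20 genes picked by the rule in the text; orange points are Car3, Pck1 and Cyp2e1, the solid line marks equal counts and the dashed line the median ratio of 22.3. Cyp2e1 and Cyp2c29 lie near the line of equal counts, Car3 and Slco1b2 are the next nearest to it, and Pck1 lies near the dashed line.

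Liver lobules are zoned: hepatocytes around the portal vein express genes of gluconeogenesis and the urea cycle, Pck1 among them, and those around the central vein express Cyp2e1 and other cytochromes P450. Lists of 10 genes for each zone, added after the members' values were seen, were read in the same libraries. Of the periportal genes, Cyp2f2 had 1918 counts in knockout library 1 and 0 in knockout library 2, Hal had 442 and 2, Sds 183 and 0, Cps1 3216 and 178, G6pc 631 and 18, and Uroc1 341 and 8. Of the pericentral genes, Cyp2c29 had 78 counts in knockout library 1 and 74 in knockout library 2, Cyp1a2 30 and 24, Cyp3a11 60 and 38, and Cyp2c37 0 and 8. Gulo, a pericentral gene that every library held, had 102 and 36, against 42, 22 and 36 in control libraries 1 to 3 and 30 in knockout library 3. Apart from Gulo, none of the genes just named exceeded 12 counts in a control library or in knockout library 3. The remaining genes of the lists had more than 20 counts in at least 1 control library, except Rhbg, which had at most 8 in any library. Normalized ratios of knockout library 1 to 2 were 0.826, 0.749 and 0.738 for the pericentral genes Oat, Slc1a2 and Lgr5. For Glul, also pericentral, the ratio was 1.14. The periportal genes Gls2, Ass1, Hsd17b13 and Arg1 stood at 1.46, 1.44, 1.35 and 1.01, so the zones overlapped. The Slc1a2 ratio rested on 18 and 22 counts. For Gls2 and Hsd17b13 every knockout library lay above every control, and DESeq2 called both higher in the knockouts, edgeR neither.

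The wider lipid programme of fat was then read from 56 other genes in 8 lists. Of the 7 adipokine and adipocyte receptor genes 3 were at or near 0: Lep, the leptin gene, and Adrb3, the beta-3 adrenergic receptor gene, had 0 counts in all 6 libraries, and Adig, a small adipocyte membrane protein gene, had 8 in control library 1 and 0 elsewhere. The other 4, Hcar1, Npr3, Adora1 and Trarg1, had counts in every library. Trarg1, which encodes a membrane protein of glucose transporter trafficking in fat and muscle, had 384, 466 and 394 counts in control libraries 1 to 3 and 602, 536 and 522 in knockout libraries 1 to 3, without overlap (log2 fold change 0.40 ± 0.14 SE, DESeq2 adjusted p = 0.113). The brown-fat gene Ucp1, the mitochondrial uncoupler, had 0 to 8 counts. Of the 56 genes, 49 were given an adjusted p-value, and 2 were past the threshold in DESeq2, both higher in the knockouts, or 4.08% of the 49 against 2.19% of all genes tested. The median log2 fold change over the 49 was 0.07, against -0.01 over all genes tested. In edgeR 0 of the 56 passed, with 10 of the 51 fitted at an unadjusted p under 0.05, against 9.48% of all genes fitted there.

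Angptl4 (chromosome 17, 33773750 to 33781830) encodes a secreted inhibitor of lipoprotein lipase. It rose from 327, 453 and 486 normalized counts in control libraries 1 to 3 to 794, 604 and 899 in knockout libraries 1 to 3, with no overlap. The log2 fold change was 0.86 ± 0.19 (SE, DESeq2 adjusted p = 0.00149; edgeR adjusted p = 0.203). It lost significance in DESeq2 without knockout library 1 (adjusted p = 0.0603) and without knockout library 3 (adjusted p = 0.0713). Without libraries 1 and 2 together the log2 fold change was 1.09, from 1 knockout library with the spread taken from the controls. Over 15 alternatives the adjusted p ran from 0.000252 to 0.203.

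Klf15 (chromosome 6, 90462576 to 90475238), a Kruppel-like transcription factor gene active in adipocyte differentiation, rose from 1034, 933 and 1179 to 1636, 1586 and 1247 normalized counts. Knockout library 3, the lowest of its group, lay just above the highest control. The log2 fold change was 0.51 ± 0.14 (SE, DESeq2 adjusted p = 0.0177; edgeR adjusted p = 0.261). Leaving out any 1 of control library 1, control library 2, knockout library 1 or knockout library 2 ended the call, with adjusted p-values of 0.0988, 0.191, 0.315 and 0.163. Over 15 alternatives the adjusted p ran from 0.00154 to 1.00, and the log2 fold change was 0.25 without knockout libraries 1 and 2.

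Lipoprotein lipase itself works with partners. Gpihbp1, which anchors it on capillary endothelium, averaged 899 ± 67.5 and 884 ± 163 normalized counts in controls and knockouts, and Lmf1, its folding factor, 2058 ± 354 and 2089 ± 19.2 (SD, n = 3 each). Neither passed the threshold, and their groups overlapped. The 95% interval of the log2 fold change was -0.32 to 0.27 for Gpihbp1. Apoc2, the activator of the enzyme, had 0 counts in all 6 libraries. Of its 813 exonic bases, 646 are shared with Gm44805, a gene on the same strand. How reads in shared bases were counted is not given in the sources used here, so this 0 cannot be read as absence.

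Among the transcription factors only Klf15 passed. Pparg, the master regulator of fat cell formation, stood at 575, 492 and 541 normalized counts in the controls and 708, 592 and 764 in the knockouts, without overlap (log2 fold change 0.36 ± 0.15 SE, DESeq2 adjusted p = 0.221). Its level of 4.79 TPM, averaged over the 6 libraries, compares with 0.00515 TPM for its target Adipoq, which lies under the floor. Srebf1, which drives lipid synthesis genes, was at 13699 ± 698 and 13403 ± 448 normalized counts.

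The enzymes of lipid synthesis and breakdown were expressed in every library. Of the 10 synthesis genes and of the 8 droplet and lipolysis genes 0 passed in DESeq2 or edgeR, with 1 of each list at an unadjusted p under 0.05 in edgeR. Acly, which makes cytosolic acetyl-CoA, averaged 170623 ± 2259 normalized counts in controls and 163729 ± 11104 in knockouts, and Fasn, the fatty acid synthase, at 22285 ± 3542 and 21794 ± 423. Scd1, the stearoyl-CoA desaturase of fat and liver, chosen after its values were seen, was at 2212, 1895 and 2387 in control libraries 1 to 3 and at 6330, 2521 and 1633 in knockout libraries 1 to 3, so that a single library carried its mean. Of the lipases, Pnpla2, which begins triglyceride breakdown, was at 5257 ± 178 and 5440 ± 211, and Mgll, which ends it, at 3514 ± 265 and 3677 ± 509 (SD, n = 3 each).

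**Figure D4:**
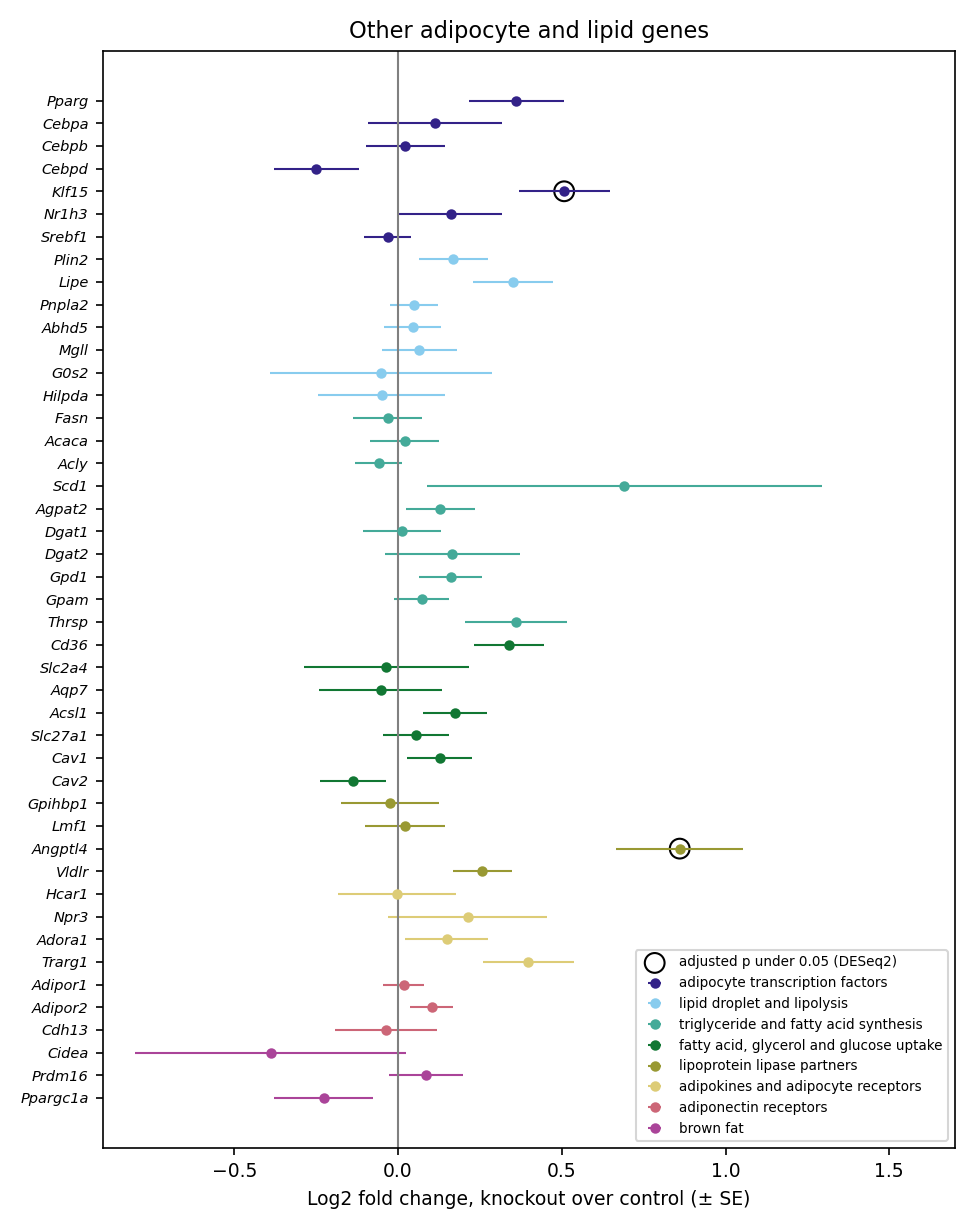
Log2 fold change of knockout over control with its standard error for the 45 genes of the 8 adipocyte and lipid lists that have a mean of at least 50 normalized counts; colours mark the lists and black rings the genes with a DESeq2 adjusted p under 0.05. Angptl4 at 0.86 and Klf15 at 0.51 carry rings, and Scd1, at 0.69, has the widest bar.

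Uptake, receptor and brown-fat genes gave no call in DESeq2 or edgeR; in edgeR 1 of 7 uptake genes, 1 of 7 adipokine and receptor genes, 0 of 3 adiponectin receptor genes and 1 of 8 brown-fat genes had an unadjusted p under 0.05. The fatty acid transporter Slc27a1 was at 4014 ± 432 and 4170 ± 289 normalized counts, and Cav1, the caveolin of adipocyte and endothelial membranes, at 3522 ± 212 and 3845 ± 402. Cd36, the fatty acid translocase, had every knockout library above every control (1490 ± 160 and 1884 ± 56.3; log2 fold change 0.34 ± 0.11 SE, DESeq2 adjusted p = 0.0608). Among adipocyte receptors, Adora1 was at 4259 ± 367 and 4719 ± 830 and the lactate receptor gene Hcar1 at 609.8 ± 136 and 608.8 ± 53.5. The adiponectin receptor genes Adipor1 and Adipor2 were expressed, at 59.7 and 29.4 TPM on average. Adipor1 was at 12936 ± 226 and 13089 ± 399 normalized counts, with overlapping groups, and Adipor2 at 7338 ± 30.7 and 7881 ± 246, every knockout library lying above every control (log2 fold change 0.10 ± 0.07 SE, DESeq2 adjusted p = 0.602). Of the brown-fat list, Prdm16 was at 883 ± 55.8 and 936 ± 55.7 and Ppargc1a at 553 ± 40.5 and 473 ± 61.5; Elovl3, a fatty acid elongase gene, had 148 counts in knockout library 1, 26 in knockout library 2 and 0 in the other 4.

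Markers of fibroblasts, a list that also holds genes of fat cell precursors, did not all go one way. Of 10 fibroblast and preadipocyte genes 6 were higher in the knockouts in DESeq2 (Pdgfra, Dcn, Col1a1, Col1a2, Col3a1 and Ly6a) and 0 lower. The shares over all genes tested were 1.53% higher and 0.657% lower. In edgeR 3 of the 10 passed, against 0.115% of all genes fitted there. The progenitor genes Dpp4 and Pi16 did not pass, with log2 fold changes of -0.26 and -0.42, and for Pi16 every knockout library lay below every control; Lum and Pdgfrb, at 0.33 and 0.13, did not pass either. Their summed level was 573 to 761 CPM in control and 1018 to 1090 CPM in knockout libraries. The 7 acinar genes summed to 5018 to 10337 CPM and 13357 to 18298 CPM, with 0 past the threshold in DESeq2 or edgeR and all 7 at an unadjusted p under 0.05 in edgeR, against 9.48% of all genes. The 6 duct genes summed to 328 to 363 CPM and 372 to 443 CPM. In DESeq2 2 of them were higher (Krt7 and Muc1) and 0 lower, against 1.53% and 0.657% of all genes tested. In edgeR 0 passed, and 2 had an unadjusted p under 0.05, against 9.48% of all genes fitted there. None of these lists had a gene at 0 in all libraries. Their part in the values of Fabp4, Angptl4 and Klf15 was not tested.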

How the data were processed

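Read counts per gene were taken from 1 deposited table of 6 islet libraries, made by the authors without normalization or pooling; per the submitters' processing notes, FastQC, STAR, featureCounts and DESeq2 were used with build mm10, and the strand setting and program versions are not given in the sources used here. Each column was assigned through its group name and replicate number, and 0 columns were left unused. All 55536 gene identifiers matched GENCODE M21 (GRCm38), from which coordinates and merged exon lengths (for TPM, computed here) were taken; none of the 10 genes shares exonic bases with another annotated gene, whereas of the other named genes Adora1, Mgll, Prdm16, Srebf1, Elovl3, Npr3, Krt7, Cebpd, Lipe, Apoc2, Adrb3, Cyp2c29, Cyp2f2, Sds, Gls2, Rhbg, Slc1a2, Glul, Pi16, Dpp4, Pdgfra, Col3a1, Ahsg and Serpina1c do.

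Following the series' design text, knockout was tested against control with DESeq2 1.42.0 in R 4.3.3 (median-of-ratios size factors, genotype as the only term, Wald test, genes with at least 10 counts in total, Benjamini-Hochberg adjusted p under 0.05 over all genes). The fits were tested on simulated data. Alternatives were edgeR 4.0.16 (quasi-likelihood test, TMM), TMM factors, other filters on low counts, no Cook's distance filter, no independent filtering, the replicate number as a block and each library left out. Halved counts, knockout libraries 1 and 2 left out together, and the hepatocyte sum without Tat, were added after the data were seen.

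The members and gene lists were chosen with earlier results of these data known. Named were all 10 members, list genes past the threshold, otherwise the 2 most abundant of each list; Lep, Adrb3, Adig, Trarg1, Npr3, Ucp1, Gpihbp1, Lmf1, Apoc2, Pparg, Srebf1, Scd1, Cd36 and Elovl3, and the marker and zonation genes given with values, were chosen after their values were seen. A planned ranking of genes by likeness to Adipoq was not applied, because Adipoq had counts in 1 library only. Values of some list genes are not reported here.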

Additional observations from a re-analysis of the deposited data

How the results depend on the processing

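The number of genes past the threshold, 389, was 29 in edgeR, 129 without knockout libraries 1 and 2, and 153 to 952 when single libraries were left out; the lowest came without knockout replicate 1 (146 shared with the 389) and the highest without control replicate 3 (333 shared). The 2 other adipocyte genes became 0 in edgeR (10 at an unadjusted p under 0.05), 1 without knockout libraries 1 and 2 (leaving 1 knockout library, assumed to vary like the controls), and 0 to 4 when single libraries were left out: 0 without knockout replicate 1, 1 without knockout replicate 2 (Angptl4) and 4 without control replicate 3, where Cd36 and Lipe joined. Without control replicate 2 there were 3 (Angptl4, Cd36 and, lower, Cebpd), and the 2 were Angptl4 and Vldlr without control replicate 1 and Klf15 and Elovl3 without knockout replicate 3. The cause was not tested. With the replicate block the counts were 405 and 1 (Angptl4), Klf15 having an adjusted p of 0.0516 there. Same-numbered libraries did not deviate together over all genes (correlations of -0.0482, -0.0587 and 0.0105 over 15811 genes). The labels do not say whether the numbers pair the samples, and these correlations cannot exclude it. With halved counts 323 genes passed. Of 76 member fold changes under alternatives, 70 moved by less than the spread between libraries. That spread was wide for Car3, Pck1 and Cyp2e1, so the tally says little of them. The Pck1 value of 10.12 without control replicate 1, against 7.88 with all libraries, was among the 70. The median over the 6 fitted members, 2.10, was -0.57 without knockout libraries 1 and 2. Depth limits the 5 adipocyte-defining genes, all read from at most 16 counts.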

Other observations

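Genes of lymphocytes and of mesothelium, the lining of serosal surfaces, gave no call. Of 9 lymphocyte genes 3 were given an adjusted p and 0 passed in DESeq2 or edgeR. In edgeR 5 of the 9 had an unadjusted p under 0.05, against 9.48% of all genes fitted there. Their summed level was 20.8 to 22.9 CPM in control and 18.1 to 19.0 CPM in knockout libraries. The B-cell gene Ms4a1 had 16, 14 and 22 counts in control libraries 1 to 3 and 2, 0 and 2 in knockout libraries 1 to 3. Of 5 mesothelial genes, Msln had 6597, 7744 and 12219 counts in the controls and 5030, 4611 and 6617 in the knockouts, while the other 4 had at most 50 in any library. These genes were chosen after their values were seen.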
